A study of Mus musculus with 20 samples.

Results

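The conjugation enzymes described here are the UDP-glucuronosyltransferases (Ugt1, Ugt2 and Ugt3 genes), the glutathione S-transferases (the alpha, mu, pi, theta, kappa, omega and zeta classes and the microsomal Mgst genes) and the sulfotransferases (Sult genes) of mouse liver. They were chosen by the start of the gene symbol in the platform annotation, a rule in which no measured value enters. Earlier results of these data were known when that rule was set. Probe sets that name a single gene covered 46 such genes, namely 10 Ugt, 23 Gst or Mgst and 13 Sult genes, of 18193 genes in all. A gene was tested where 3 or more arrays had one of its probe sets above their own median, and the brightest such probe set represented it. That left 37 conjugation genes (10 Ugt, 20 Gst or Mgst and 7 Sult) of 12832 genes tested. Whole-liver RNA of C57BL/6 mice, all male and 8 to 12 weeks old, was measured on 20 Affymetrix Mouse430_2 arrays. The 5 groups were non-manipulated control animals (5 arrays), animals with minor trauma (3 arrays), and animals with severe trauma and 1.5 h of hemorrhagic shock, called shock here (4 arrays). In the last 2 groups the same injury was followed by resuscitation for 1 h (4 arrays) or for 4.5 h (4 arrays). No group was sampled later after that injury without resuscitation, so resuscitation and time since injury cannot be told apart. All groups shared the strain, the sex and the age range, and the labels gave neither the nature of the minor trauma nor the time at which those mice were sampled. The labels number the arrays as replicates without saying that each came from a separate mouse, so p-values measure the spread between these arrays.

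These enzymes carry out phase II of drug and hormone metabolism, in which a polar group is joined to a drug, steroid, bile acid, bilirubin or reactive product so that it can be exported into bile or blood. Ugt enzymes sit in the endoplasmic reticulum and take the sugar acid from UDP-glucuronic acid, and Ugt3 enzymes use other UDP-sugars. Gst enzymes join glutathione to electrophiles, and Sult enzymes are cytosolic and take sulfate from the donor PAPS. Hepatocytes hold most of these enzymes in liver, and their genes are classic targets of the nuclear receptors CAR (Nr1i3) and PXR (Nr1i2), of the aryl hydrocarbon receptor (Ahr) and of NRF2 (Nfe2l2). In the mouse assembly GRCm38.p6 the Ugt2 members lie side by side on chromosome 5 in the order Ugt2b34, Ugt2b1, Ugt2b35, Ugt2b36, Ugt2b5, Ugt2b37, Ugt2a3 and Ugt2b38, with Sult1b1, Sult1d1 and Sult1e1 farther along the same chromosome. The mu-class genes follow each other on chromosome 3 as Gstm5, Gstm7, Gstm6, Gstm3, Gstm2, Gstm1 and Gstm4.

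Of the 37 genes tested, 34 lay above the array median (4.60 on the log2 scale after normalization) on all 20 arrays. Ugt2b37 did so on 19 arrays, Sult1c2 on 18 and Sult1e1 on 7, and Sult1e1 therefore passed the limit through control array 5, minor trauma arrays 2 and 3 and the 4 arrays after 4.5 h of resuscitation. The 9 genes not tested were Gsto2, Gstt4, Mgst2, Sult1c1, Sult2a2, Sult2b1, Sult3a1, Sult4a1 and Sult6b1. Gstt4 rose above the median on 2 arrays and the others on none.

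Some arrays stood apart, and 3 features of the arrays touch the values that follow. The deposited signals were unscaled, with 2% trimmed means from 64.93 to 166.6, and were therefore quantile normalized. The array labelled control 5 was most like minor trauma array 2 (r = 0.983 over all genes). Cyp2b10, a CAR target, read 11.83 on control array 5 against 3.82 to 6.14 on the other controls and 11.45 to 12.36 on the minor trauma arrays. Minor trauma array 3 correlated at best at 0.950 with any other array. The arrays also fell into 10 with and 10 without the spiked bacterial dap control transcripts (283 to 1455 against 1.109 to 6.673 in deposited signal). Each group held both kinds, but the set without dap held 1 minor trauma array, so a minor trauma value from that set has no replicate. Control array 5 was among the 3 controls without dap.

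After 4.5 h of resuscitation most conjugation genes were lower than in control liver. By limma with Benjamini-Hochberg adjustment over all genes, 29 of 37 (78.4%) passed an adjusted p of 0.05, with 27 lower and 2 higher, where 38.9% of all genes tested passed and 23.8% were lower. Among the 8645 genes that lay above the array median on all 20 arrays, 45.6% passed and 28.1% were lower. The median log2 fold change was -0.50 for the conjugation genes, -0.09 for all genes and -0.10 for those 8645 genes. The F test over the 5 groups called 29 of the 37 genes, against 45.4% of all genes. By family, 8 of 10 Ugt genes were lower and 1 was higher, 15 of 20 Gst and Mgst genes were lower and none was higher, and 4 of 7 Sult genes were lower and 1 was higher. In 20 genes all 4 arrays after 4.5 h lay below all 5 controls, and in 2 genes above them. Over all genes tested, 30.8% did not overlap and 18.7% did not overlap and were lower. Most of the shifts were moderate. Only Ugt2b35, Gsta2, Gstm4, Ugt2b38 and Sult1e1 passed the test with a change of at least 2-fold (5 of 37 genes, against 12.5% of all genes). This count holds for the brightest probe set of each gene. A dimmer probe set of Gsta3 also passed with such a change (-1.26 ± 0.12), so the count depends on the probe set read. In bulk liver, fewer cells of a type and less RNA per cell cannot be told apart.

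**Figure D1:**
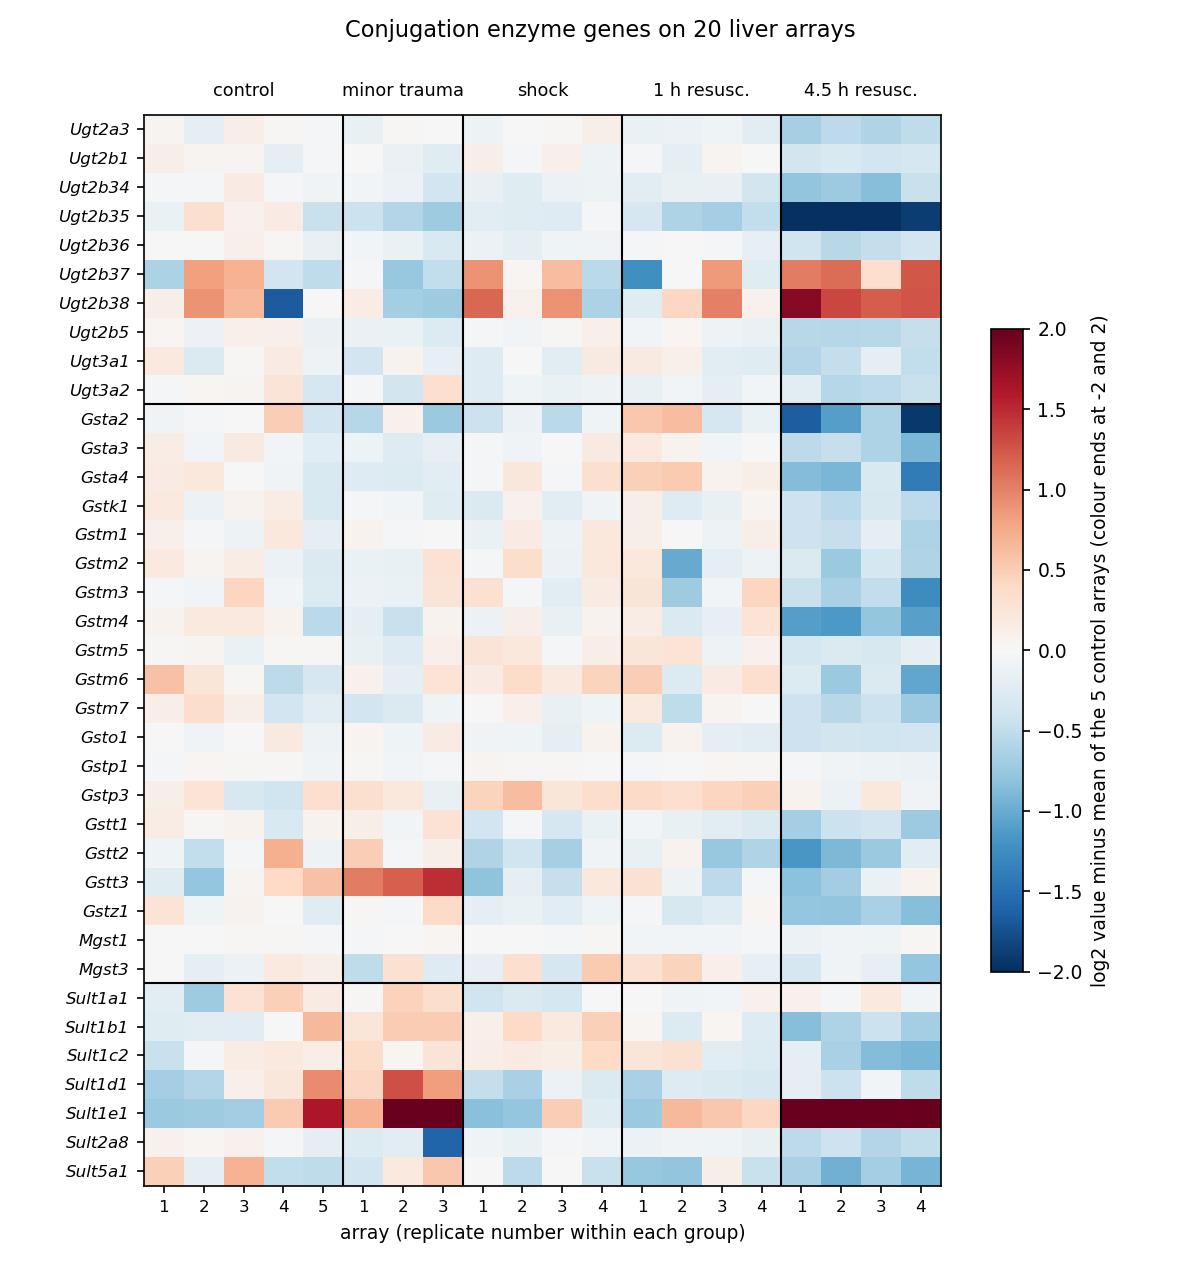
Each of the 37 conjugation genes (rows, grouped as Ugt, Gst with Mgst, and Sult) on each of the 20 arrays (columns, by group), as the log2 value minus the mean of the 5 control arrays, with blue lower, red higher and the colour ending at -2 and 2. The 4 columns after 4.5 h of resuscitation are blue in most rows, while Sult1e1 and Ugt2b38 are red there and Gstp1 and Mgst1 are near white on all arrays.

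**Figure D2:**
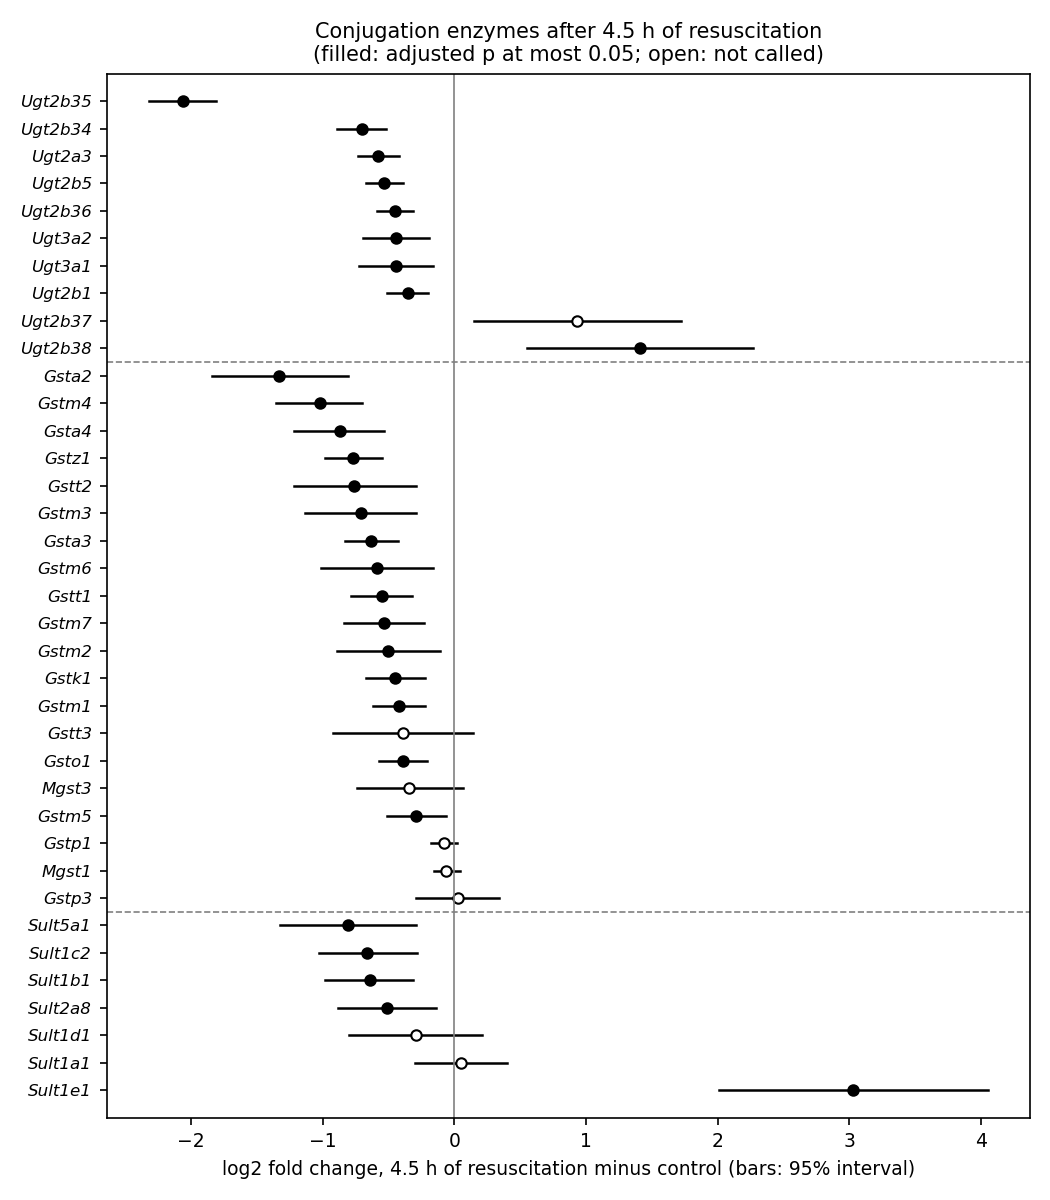
Log2 fold change of each conjugation gene after 4.5 h of resuscitation against control with its 95% interval, ordered within the Ugt, Gst and Sult families. Filled points passed an adjusted p of 0.05 (27 lower, 2 higher) and open points did not.

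Among the glucuronosyltransferases, Ugt2b35 changed most. Its log2 values were 11.31, 11.76, 11.53, 11.60 and 10.99 in control and 9.31, 9.24, 9.40 and 9.54 after 4.5 h of resuscitation. It fell 4.18-fold (log2 fold change -2.06 ± 0.12 SE, limma adjusted p = 4.56e-11), with no overlap between the groups. In between it read 11.23, 11.20, 11.19 and 11.40 in shock and 11.09, 10.82, 10.76 and 10.95 after 1 h of resuscitation. The minor trauma arrays read 11.01, 10.85 and 10.73. Within the arrays with the spiked dap transcripts the change at 4.5 h was -2.43 ± 0.15, and within those without them it was -1.79 ± 0.15. The latter include control array 5 (10.99), the lowest control.

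The other Ugt2 genes of that chromosome 5 cluster mostly fell by less. Ugt2b34 fell by 0.70 ± 0.09 on the log2 scale, from 11.41 to 11.64 in control to 10.64 to 11.03. Ugt2a3, which glucuronidates bile acids among other substrates, fell by 0.58 ± 0.08. Ugt2b5 fell by 0.53 ± 0.07, Ugt2b36 by 0.45 ± 0.07 and Ugt2b1 by 0.35 ± 0.08, with limma adjusted p-values between 2.12e-06 and 0.000764. In each of these 5 genes every array after 4.5 h read below every control array. The Ugt3 genes Ugt3a1 and Ugt3a2, which stand on chromosome 15, fell by 0.44 ± 0.13 and 0.44 ± 0.12, and their groups overlapped. A dimmer probe set of Ugt3a1 was not called (-0.35 ± 0.15, limma adjusted p = 0.0766).

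Ugt2b38 and Ugt2b37, which have Ugt2a3 between them, did not fall, and only the rise of Ugt2b38 was called against control. Ugt2b38 read 8.75, 9.53, 9.29, 6.97 and 8.64 in control, a spread wider than that of the falling genes, and 10.46, 9.98, 9.85 and 9.89 after 4.5 h. All 4 late arrays lay above all controls, and the gene was 2.65-fold higher (log2 fold change 1.41 ± 0.41, limma adjusted p = 0.00936). Within the arrays with spiked dap transcripts the change was 1.98 ± 0.67 (limma adjusted p = 0.0616), and within those without it was 0.97 ± 0.41 (limma adjusted p = 0.123), so it passed in neither set alone. Ugt2b37 read 5.18 to 6.64 in control and 6.16 to 7.05 after 4.5 h, so the groups overlapped. Its difference of 0.93 ± 0.38 had a limma adjusted p of 0.0546 against control. The limma F test over the 5 groups did not call it either (adjusted p = 0.0709). Against 1 h of resuscitation Ugt2b37 passed (1.09 ± 0.40, limma adjusted p = 0.0391), while Ugt2b38 at 1.09 ± 0.43 did not (limma adjusted p = 0.0588). On 1 h array 1 Ugt2b37 read 4.58, just below the array median of 4.60. Leaving out control array 2 or 3, shock array 4, 1 h array 1 or 3, or 4.5 h array 3 brought the call of Ugt2b37 against control below 0.05 (limma adjusted p from 0.0232 to 0.046). These genes are close copies of each other, and whether their probe sets read each other's RNA was not tested.

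Start-site windows of some genes of that cluster are shown because genes within it moved in opposite directions. Each is the 200 bases before a RefSeq start site in GRCm38.p6, 5′ to 3′ on the gene's strand. Windows were found for 34 of the 37 genes (44 windows, since some genes have several start sites). They were searched on both strands for the antioxidant response element core TGACNNNGC, the xenobiotic response element core GCGTG, the HNF1 half-site GTTAAT, the CAR and PXR half-site AGTTCA, the C/EBP core TTGCNNAA and the TATA box TATAAA. Capitals mark a match. The windows lie at chr5:87000660-87000859 on the plus strand for Ugt2b35, and on the minus strand at chr5:87140341-87140540 for Ugt2b5, chr5:87254789-87254988 for Ugt2b37 and chr5:87424204-87424403 for Ugt2b38.
Ugt2b35 (fell): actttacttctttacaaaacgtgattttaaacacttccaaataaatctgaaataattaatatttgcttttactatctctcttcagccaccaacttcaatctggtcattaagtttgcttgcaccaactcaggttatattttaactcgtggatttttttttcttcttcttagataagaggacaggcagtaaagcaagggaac
Ugt2b5 (fell): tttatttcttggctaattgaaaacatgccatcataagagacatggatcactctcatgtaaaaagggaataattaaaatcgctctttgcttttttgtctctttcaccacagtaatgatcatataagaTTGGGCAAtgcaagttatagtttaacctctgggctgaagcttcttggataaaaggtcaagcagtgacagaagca
Ugt2b37 (0.93, not called): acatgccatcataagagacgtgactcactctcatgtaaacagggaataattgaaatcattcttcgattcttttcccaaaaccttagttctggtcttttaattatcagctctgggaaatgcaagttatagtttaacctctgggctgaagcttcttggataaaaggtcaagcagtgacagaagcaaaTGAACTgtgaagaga
Ugt2b38 (rose): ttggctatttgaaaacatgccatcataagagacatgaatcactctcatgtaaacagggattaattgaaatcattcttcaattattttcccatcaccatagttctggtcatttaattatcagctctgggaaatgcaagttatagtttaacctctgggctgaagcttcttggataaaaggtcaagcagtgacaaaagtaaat
In a global alignment the window of Ugt2b38 shared 80% of aligned positions with that of Ugt2b5, which fell, and 81.8% with that of Ugt2b37. It shared 59.3% with that of Ugt2b35. Ugt2b5 held a C/EBP core match (TTGGGCAA, starting 74 bases before the start site) that the Ugt2b37 and Ugt2b38 windows did not, and Ugt2b37 held a CAR and PXR half-site match 15 bases before it. The windows of Ugt2b35 and Ugt2b38 matched none of the 6 motifs.

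The Ugt1a genes share their last exons, so their probe sets name 8 genes each and give a value for the locus rather than for 1 gene. All 3 such probe sets were lower after 4.5 h of resuscitation than in control, by 0.37 ± 0.09, 0.22 ± 0.05 and 0.39 ± 0.07 on the log2 scale (limma adjusted p = 0.00233, 0.00313 and 0.00017 over all kept probe sets). None of them passed against control in minor trauma, shock or after 1 h of resuscitation. Ugt1a enzymes include the one that conjugates bilirubin, which these probe sets do not separate from the rest.

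Among the glutathione S-transferases the alpha class fell most. Gsta2, an alpha-class enzyme with activity toward lipid hydroperoxides, read 9.95, 9.99, 10.01, 10.51 and 9.63 in control and 8.36, 8.91, 9.40 and 8.09 after 4.5 h. The late arrays all lay below the controls, and the gene fell 2.51-fold (log2 fold change -1.33 ± 0.25, limma adjusted p = 0.000217). It fell by 1.63 ± 0.32 within the arrays with spiked dap transcripts and by 1.11 ± 0.33 within those without. The latter include control array 5 (9.63), the lowest control. After 1 h of resuscitation Gsta2 had read 10.55, 10.63, 9.68 and 9.88, so 2 of those arrays lay above every control. Gsta4, which conjugates the lipid aldehyde hydroxynonenal, fell by 0.87 ± 0.17, and its array 3 after 4.5 h (8.90) equalled the lowest control (8.90). Gsta3, which detoxifies aflatoxin epoxide in mice, fell by 0.63 ± 0.09 on its brightest probe set and by 1.26 ± 0.12 on a dimmer one, so its size depends on the probe set. A further probe set that names 3 Gsta genes was 1.18 ± 0.24 lower (limma adjusted p = 0.000545).

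All 7 mu-class genes were lower after 4.5 h than in control. Gstm4 read 9.01, 9.15, 9.14, 9.02 and 8.41 in control and 7.84, 7.80, 8.18 and 7.86 after 4.5 h. The groups did not overlap, and it fell 2.03-fold (log2 fold change -1.02 ± 0.15, limma adjusted p = 2.14e-05). It fell by 1.27 ± 0.18 within the arrays with spiked dap transcripts and by 0.83 ± 0.21 within those without. The latter include control array 5 (8.41), the lowest control. Gstm3 fell by 0.71 ± 0.20, Gstm6 by 0.59 ± 0.20, Gstm7 by 0.53 ± 0.15, Gstm2 by 0.50 ± 0.19, Gstm1 by 0.42 ± 0.10 and Gstm5 by 0.29 ± 0.11. Mu-class sequences are alike, and whether a probe set reads several of these genes was not tested. All 3 dimmer probe sets of Gstm1 were called lower too. A dimmer probe set of Gstm7 was not called (0.19 ± 0.22, 95% interval -0.26 to 0.65), so the fall of Gstm7 rests on its brightest probe set.

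The theta, zeta, kappa and omega genes followed in part. Gstz1, the maleylacetoacetate isomerase of tyrosine breakdown, fell by 0.77 ± 0.10 (from 11.04 to 11.55 in control to 10.43 to 10.64). Gstt2 fell by 0.76 ± 0.22, Gstt1 by 0.55 ± 0.11, Gstk1 of mitochondria and peroxisomes by 0.45 ± 0.11 and Gsto1, which also reduces dehydroascorbate, by 0.39 ± 0.09. Gstt3 was not called at 4.5 h (-0.39 ± 0.25, 95% interval -0.92 to 0.14).

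The pi-class and microsomal genes did not pass the test. Gstp1, the main pi-class enzyme of mouse liver, read 13.15 to 13.26 in control and 13.09 to 13.19 after 4.5 h, a difference of -0.08 with a 95% interval of -0.18 to 0.02. Mgst1, a membrane-bound enzyme of the endoplasmic reticulum and the mitochondrial outer membrane, read 13.00 to 13.05 and 12.92 to 13.06, a difference of -0.06 with an interval of -0.15 to 0.04. These intervals leave out a fall as large as that of Gstm1. Whether these bright probe sets respond linearly was not tested. A dimmer probe set of Mgst1 differed by 0.21 with an interval of -0.36 to 0.77. Gstp3 (0.03, interval -0.29 to 0.34) and Mgst3 (-0.34, interval -0.74 to 0.07) did not pass either.

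Windows of 2 alpha-class genes are shown because both genes fell and their matches differ. The 200 bases lie at chr9:78347146-78347345 on the minus strand for Gsta2 and at chr1:21240385-21240584 on the plus strand for Gsta3, with matches in capitals as before.
Gsta2 (fell): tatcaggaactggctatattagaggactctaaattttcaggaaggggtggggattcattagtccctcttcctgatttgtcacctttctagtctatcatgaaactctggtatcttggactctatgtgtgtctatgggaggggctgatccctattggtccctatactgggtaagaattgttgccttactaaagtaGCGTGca
Gsta3 (fell): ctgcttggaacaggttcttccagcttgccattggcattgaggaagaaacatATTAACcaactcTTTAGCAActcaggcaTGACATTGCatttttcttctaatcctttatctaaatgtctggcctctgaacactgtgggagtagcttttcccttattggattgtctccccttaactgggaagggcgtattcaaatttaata
Gsta2 held a xenobiotic response element core 7 bases before the start site. Gsta3 held an antioxidant response element core (TGACATTGC) at 121 bases, a C/EBP core (TTTAGCAA) at 137 and an HNF1 half-site (ATTAAC) at 149. Over the 44 windows of conjugation genes, the antioxidant response element core was found in 9.09%, against 8.6% of all 32851 windows of the same length. The xenobiotic response element core was found in 15.9% against 24.7%, the HNF1 half-site in 9.09% against 5.06% and the CAR and PXR half-site in 9.09% against 9.28%. The C/EBP core was found in 15.9% against 7.47%, and the TATA box in 6.82% against 9.96%. One match of the antioxidant core, in Gstm5, overlapped a match of the xenobiotic core. A match is a run of letters and not a binding site.

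Among the sulfotransferases Sult1e1, which sulfates and thereby inactivates estrogens, was the gene that rose. It read 2.78, 2.81, 2.82, 4.05 and 5.13 in control, where only array 5 exceeded the array median, and 6.45, 5.92, 7.55 and 6.26 after 4.5 h of resuscitation. The groups did not overlap, and the fitted log2 fold change was 3.03 ± 0.49 (limma adjusted p = 4.75e-05). Counting the controls below the array median at that median, the gene was at least 3.57-fold higher, and at least 3.84-fold higher without control array 5. Because the control values are low, the fitted size depends on the constant added before the logarithm, and it was 4.18 with 1 and 2.11 with 18 in place of 6, called with each. Within the arrays with spiked dap transcripts, where both controls lay below the array median, the gene was at least 2.99-fold higher, and within the others the fitted change was 3.43 ± 0.75. In shock it read 2.68, 2.74, 4.01 and 3.28, and after 1 h of resuscitation 2.78, 4.17, 4.06 and 3.94, all below the array median. Against 1 h it was at least 3.84-fold higher at 4.5 h (limma adjusted p = 0.000274), counting the 1 h arrays at the array median.

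The remaining Sult genes fell or did not pass. Sult5a1 fell by 0.81 ± 0.25, Sult1c2 by 0.66 ± 0.18 and Sult1b1, which sulfates thyroid hormones and phenols, by 0.64 ± 0.16. Sult2a8, a bile acid sulfotransferase of mouse liver, fell by 0.51 ± 0.18, from 12.39, 12.35, 12.40, 12.29 and 12.11 in control to 11.78, 11.89, 11.72 and 11.81. Sult1a1, the main phenol sulfotransferase, differed by 0.05 with a 95% interval of -0.30 to 0.40. Sult1d1, which sulfates catecholamines, differed by -0.29 with an interval of -0.80 to 0.21. The 200 bases before the start site of Sult1e1, at chr5:87591612-87591811 on the minus strand, are shown because it had the largest rise, and they match none of the 6 motifs.
Sult1e1 (rose): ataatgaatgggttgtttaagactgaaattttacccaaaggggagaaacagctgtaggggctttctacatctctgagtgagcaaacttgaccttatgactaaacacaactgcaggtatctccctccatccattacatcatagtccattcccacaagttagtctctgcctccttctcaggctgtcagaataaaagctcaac

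**Figure D3:**
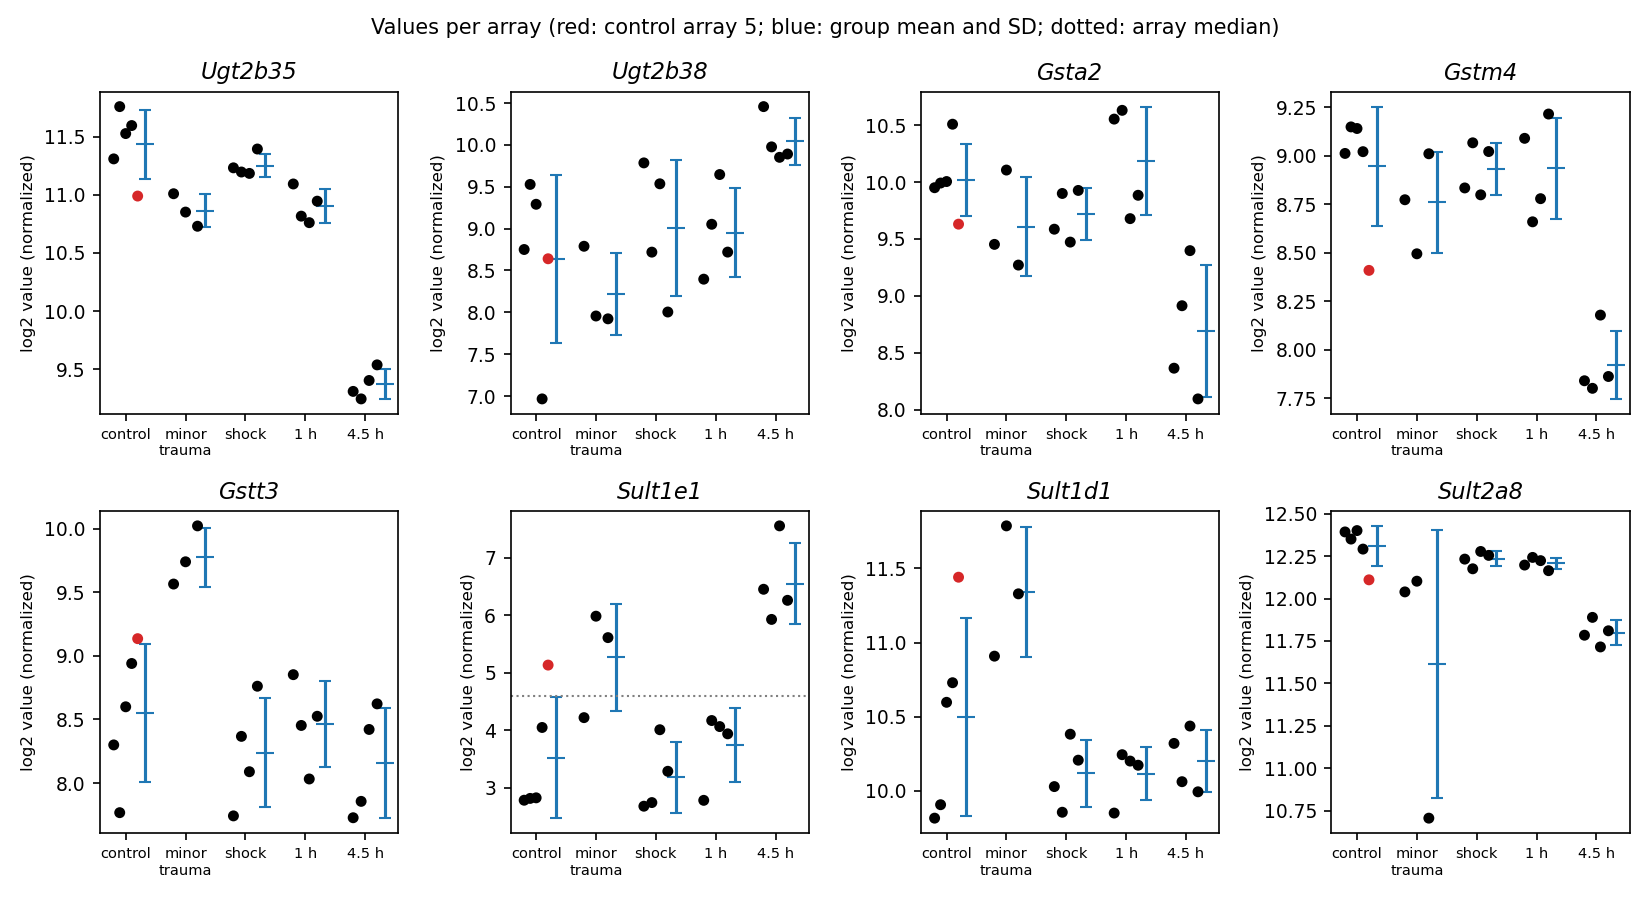
Normalized log2 value on each array for 8 conjugation genes (panels) in the 5 groups, with control array 5 in red, the group mean and SD in blue and the array median dotted where it falls in the panel. Ugt2b35, Gsta2 and Gstm4 lie lowest and Sult1e1 and Ugt2b38 highest after 4.5 h, Gstt3 lies highest in minor trauma, and the mean of Sult2a8 in minor trauma is pulled down by 1 array at 10.71.

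Of the 29 calls at 4.5 h, 25 held whichever single array was left out. Gstm2 lost its call without control array 1, 2 or 3 or 4.5 h array 2 or 4 (limma adjusted p from 0.0678 to 0.123). Gstm5 lost it without any of control arrays 1, 2, 4 and 5, 4.5 h arrays 1 to 3 or shock array 4 (from 0.053 to 0.102). Gstm6 lost it without control array 1 or 2 or 4.5 h array 2 or 4 (from 0.064 to 0.116), and Sult2a8 without control array 1 or 3 or 4.5 h array 1 or 3 (from 0.0509 to 0.0645). For Sult2a8 the control (12.11 to 12.40) and 4.5 h arrays (11.72 to 11.89) did not overlap. Its spread in the model also takes in minor trauma array 3 (10.71). Within the arrays with spiked dap transcripts 13 conjugation genes were called (12 lower), and within the others 18 (17 lower), against 20.4% and 22.5% of all genes. With unscaled arrays 17 genes were called, a count given without the share of all genes under that setting. Gstk1, Gstm1, Gstm2, Gstm5, Gstm6, Gstm7, Gsto1, Sult2a8, Ugt2b1, Ugt2b36, Ugt3a1 and Ugt3a2 were not called there (limma adjusted p from 0.061 to 0.217).

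From 1 h to 4.5 h of resuscitation many conjugation genes fell. Between those groups 24 of 37 genes (64.9%) passed, 22 lower and 2 higher, against 33.1% of all genes, of which 18.2% were lower. The median log2 fold change was -0.39 for the conjugation genes and -0.04 for all genes. Ugt2b35 fell by 1.53 ± 0.13, Gsta2 by 1.49 ± 0.26, Gsta4 by 1.17 ± 0.18 and Gstm4 by 1.01 ± 0.16, and no array of 1 group overlapped the other for any of them. Gsta4 had read 9.68, 9.72, 9.27 and 9.32 after 1 h and read 8.34, 8.29, 8.90 and 7.80 after 4.5 h. The 2 higher genes were Sult1e1 and Ugt2b37. Dimmer probe sets of Gsto1 (-0.12 ± 0.15), Ugt3a1 (-0.21 ± 0.16) and Gstm7 (0.03 ± 0.23) were not called for this step. Those of Gsta3, Gstm1, Gstm3 and Ugt2b34 were called lower. Leaving out single arrays ended 8 of these calls. They were Ugt2b37, Ugt3a1, Gstk1, Gstm3, Gstm7, Gsto1, Gstt1 and Sult1b1. Without 1 h array 1, 17 genes were called, with Ugt2b37 at a limma adjusted p of 0.172, Ugt3a1 at 0.129, Gstm7 at 0.0968 and Gstk1 at 0.0561. The share of all genes called without that array is not given. A general loss of calls therefore cannot be told apart from one of the conjugation genes. Gsto1 lost its call when control array 3, shock array 1 or 2, 1 h array 2, 3 or 4, or any of the 4.5 h arrays was left out (limma adjusted p from 0.0506 to 0.169). Ugt2b37 also lost it without 1 h array 2 or 4 or 4.5 h array 1, 2 or 4, and Ugt3a1 without 1 h array 2 or 4.5 h array 1, 2 or 4. Gstm7 lost it without 1 h array 1, 3 or 4 or 4.5 h array 2 or 4, Gstm3 without 1 h array 1 or 4 or 4.5 h array 4, Gstt1 without 1 h array 1 or 4.5 h array 4, and Sult1b1 without 1 h array 1 or 3 or 4.5 h array 1. A further 6 genes, not called with all arrays, passed when a single array was left out. Sult2a8 did so without minor trauma array 3 (limma adjusted p = 4.57e-05), Gstp3 without the same array (0.05) and Gstm2 without 1 h array 2 (0.0343). Ugt2b38 passed without control array 2 or 4, shock array 4 or 1 h array 3 (from 0.0151 to 0.0496). Mgst3 passed without minor trauma array 2, shock array 4, 1 h array 4 or 4.5 h array 2 (from 0.0363 to 0.0498). Ugt3a2 passed without control array 4 or 5, minor trauma array 2 or 3 or 4.5 h array 1 (from 0.0179 to 0.0425).

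Before that step few conjugation genes differed from control. At the end of shock 0 of 37 genes passed, against 3.11% of all genes, and 1 gene (2.7%) had an unadjusted limma p under 0.05, against 14.2% of all genes. That gene was Gstp3, with 7.53, 7.71, 7.33 and 7.43 in shock against 7.21, 7.35, 6.76, 6.69 and 7.42 in control (0.41 ± 0.15, limma adjusted p = 0.168). It passed with array weights, which count deviating arrays less (limma adjusted p = 0.0472), and without control array 5 and minor trauma array 3 together (0.0382). The differences ran from -0.43 for Gstt2 to 0.41 for Gstp3. The Ugt gene with the smallest p was Ugt2b36 (-0.12 ± 0.07, limma adjusted p = 0.448) and the Sult gene was Sult1b1 (0.29 ± 0.16, limma adjusted p = 0.444).

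After 1 h of resuscitation 1 of 37 genes (2.7%) passed, against 9.91% of all genes. It was Ugt2b35, lower by 0.53 ± 0.12 (limma adjusted p = 0.00625), with control array 5 (10.99) inside the range of the 1 h arrays and the other controls above it. Gstp3 was 0.41 ± 0.15 higher, with no overlap, at a limma adjusted p of 0.0974, and passed without control array 5 (limma adjusted p = 0.0381). Between shock and 1 h of resuscitation 0 of 37 genes passed, against 1.25% of all genes. At an unadjusted limma p under 0.05 there were 2, Ugt2b35 (-0.35 ± 0.13) and Sult1b1 (-0.40 ± 0.17), or 5.41% against 10.6% of all genes.

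Minor trauma gave another pattern, and its calls depended on single arrays. Against control 3 of 37 genes (8.11%) passed, against 3.44% of all genes, with Gstt3 higher and Sult2a8 and Ugt2b35 lower. Gstt3, a theta-class transferase, read 9.56, 9.74 and 10.02 in minor trauma and 8.30, 7.77, 8.60, 8.94 and 9.13 in control. All 3 minor trauma arrays lay above all controls, and the gene was 2.34-fold higher (log2 fold change 1.23 ± 0.28, limma adjusted p = 0.0234). It lost its call without control array 1, 2 or 3 or minor trauma array 3 (limma adjusted p from 0.0508 to 0.136). Within the arrays with spiked dap transcripts it differed by 1.45 ± 0.34 (limma adjusted p = 0.0696), and the single minor trauma array without dap lay 1.05 above the controls of that set. Ugt2b35 was lower by 0.57 ± 0.13 (limma adjusted p = 0.0257), and control array 5 (10.99) lay within the minor trauma range. It lost its call without the same 4 arrays (from 0.0516 to 0.137), and it differed by -0.83 ± 0.15 within the arrays with dap and by -0.42 on the single minor trauma array without it. Without minor trauma array 3, control array 1, control array 2 or control array 3, 0 conjugation genes were called by limma, and 5 or 6 had an unadjusted p under 0.05. In those fits Gstt3 still differed by 1.03 to 1.24 and Ugt2b35 by -0.61 to -0.49. The shares of all genes called there are not given, so a general loss of calls cannot be told apart from one of these genes. Sult2a8 read 12.04, 12.10 and 10.71 in minor trauma, so its difference of -0.69 ± 0.19 (limma adjusted p = 0.0494) came to -0.24 without minor trauma array 3 (limma adjusted p = 0.161). Its call ended when any single array other than control array 5 and minor trauma arrays 1 and 2 was left out.

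Without control array 5, 6 conjugation genes passed in minor trauma, against 9.51% of all genes. Gstt3 (1.37, limma adjusted p = 0.00293), Sult2a8 (-0.74, limma adjusted p = 0.0231) and Ugt2b35 (-0.68, limma adjusted p = 0.000636) were joined by 3 sulfotransferases of the chromosome 5 group. Sult1e1 was at least 1.58-fold higher, counting the remaining controls, all below the array median, at that median (limma adjusted p = 0.00706), Sult1d1 1.08 higher on the log2 scale (limma adjusted p = 0.00307) and Sult1b1 0.58 higher (limma adjusted p = 0.0116). With all arrays their fitted differences were 1.75 ± 0.53, 0.84 ± 0.26 and 0.42 and did not pass. Sult1e1 and Sult1d1 also passed without minor trauma array 1 (limma adjusted p = 0.0279 and 0.0353), and with unscaled arrays (0.00974 and 0.0433) or median-centred ones (0.0412 and 0.0292). Sult1e1 read 4.22, 5.98 and 5.61 in minor trauma and 5.13 on control array 5. Sult1d1 read 10.91, 11.79 and 11.33 in minor trauma, 11.44 on control array 5 and 9.82 to 10.73 on the other controls. On both genes control array 5 thus read among the minor trauma arrays. What sets control array 5 apart was not tested. On the normalized scale 20 of the 37 genes were below control in minor trauma, and 5 were when arrays were left unscaled or were centred on their medians, so no common direction can be given for the small differences there.

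**Figure D4:**
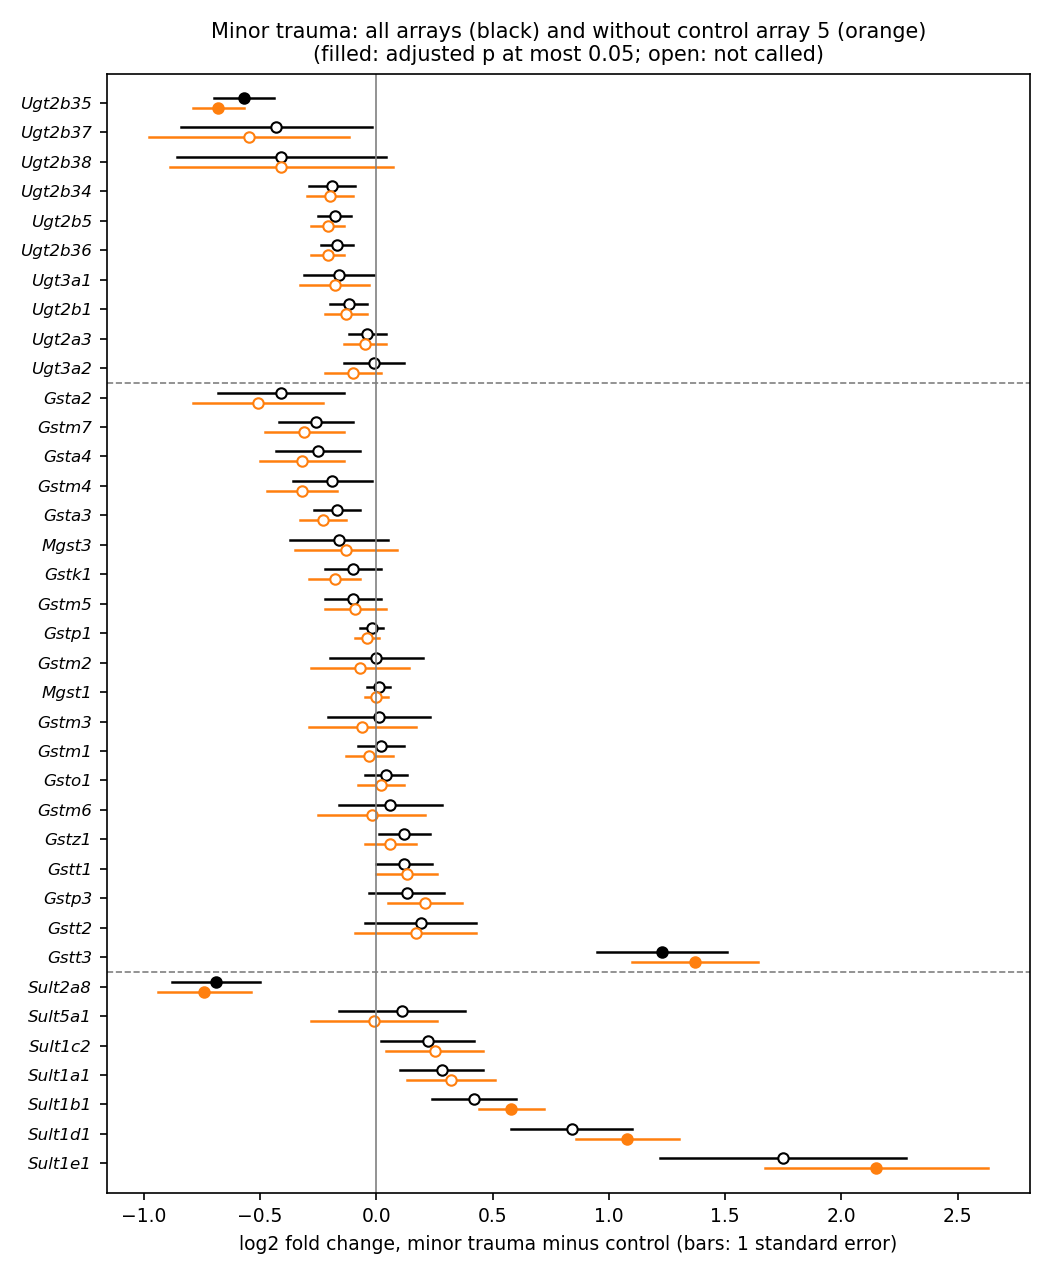
Log2 fold change of each conjugation gene in minor trauma against control with 1 standard error, from all arrays (black) and without control array 5 (orange). Filled points passed an adjusted p of 0.05, and there are 3 black and 6 orange ones, with Sult1b1, Sult1d1 and Sult1e1 filled in orange only.

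Shock with severe trauma differed from minor trauma in 3 of 37 genes (8.11%), all lower in shock, against 9.55% of all genes. Gstt3 was 2.9-fold lower (log2 fold change -1.53 ± 0.29, limma adjusted p = 0.00246), with 7.74, 8.37, 8.09 and 8.76 in shock. Sult1d1 was 2.33-fold lower (-1.22 ± 0.28, limma adjusted p = 0.0078), with 10.03, 9.86, 10.38 and 10.21 in shock. Sult1e1 was at least 1.58-fold lower (limma adjusted p = 0.0212), and lost its call without minor trauma array 2 or 3 or shock array 1 or 2 (limma adjusted p from 0.0586 to 0.0883). Single arrays also decided calls that were not made with all arrays. Sult1a1 passed without control array 2 (limma adjusted p = 0.0187) or minor trauma array 1 (0.0476), Ugt2b35 without control array 5 (0.03), Gstt1 without minor trauma array 2 (0.0466) and Sult2a8 without minor trauma array 1 (0.0169) or 2 (0.0116).

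The other genes of the conjugation pathway were read from a list of 70, of which 63 were tested. That list was drawn up with earlier results of these data known. After 4.5 h of resuscitation 33 were lower and 11 higher, where 23.8% of all genes tested were lower and 15.1% higher. The median log2 fold change was -0.41, against -0.09 for all genes. All 5 export pumps for conjugates were lower, among them Abcc6 (-0.89 ± 0.20), Abcc4 (-0.83 ± 0.20), the basolateral pump Abcc3 (-0.59 ± 0.20) and the canalicular pump Abcc2 (-0.35 ± 0.12). Without control array 5 the last 2 differed by -0.49 and -0.28 and were not called (limma adjusted p = 0.0572 and 0.0643). Of 17 genes that supply the donor molecules 9 were lower and 1 was higher. Papss1 (-1.12 ± 0.27) and Papss2 (-0.91 ± 0.14), which make the sulfate donor PAPS, both fell, as did Slc35b2, which carries PAPS into the Golgi (-0.94 ± 0.21). Cth (-1.11 ± 0.16), which makes cysteine, Gclm (-1.01 ± 0.11), a subunit of the enzyme that starts glutathione synthesis, and Gss (-0.67 ± 0.14), which completes it, fell as well. Ugp2 (-0.45 ± 0.11) and Ugdh (-0.47 ± 0.15), which make UDP-glucose and UDP-glucuronic acid, also fell. Of 12 other conjugating enzymes 7 were lower, led by Glyat, which conjugates glycine (-1.27 ± 0.07), and the N-acetyltransferase Nat1 (-1.20 ± 0.30). Higher were Nnmt, which methylates nicotinamide (0.81 ± 0.18), and Baat, which conjugates bile acids (0.42 ± 0.13). Of 7 deconjugating and hydrolysing enzymes 5 were lower, including Ephx1 (-0.69 ± 0.19) and Gusb (-0.56 ± 0.15).

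The receptors and sensors that control these genes went in both directions. Of 11 tested, 4 were lower and 4 higher after 4.5 h. Nr1i3 (CAR) read 8.90, 8.13, 8.88, 10.11 and 8.66 in control and 7.19, 6.60, 7.06 and 7.45 after 4.5 h, with no overlap (-1.86 ± 0.28, limma adjusted p = 2.07e-05). The bile acid receptor Nr1h4 (-1.57 ± 0.15), the shared partner Rxra (-0.77 ± 0.15) and the fatty acid receptor Ppara (-0.70 ± 0.14) fell too. Ahr (0.75 ± 0.25), its partner Arnt (0.49 ± 0.18), the NRF2 inhibitor Keap1 (0.59 ± 0.11) and Hnf4a (0.31 ± 0.11) rose, Hnf4a with a limma adjusted p of 0.0566 without control array 5. Nr1i2 (PXR) at -0.08 ± 0.20 and Nfe2l2 (NRF2) at 0.04 ± 0.13 were not called at 4.5 h.

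Their target genes outside the conjugation families split, with 4 of 11 higher and 3 lower after 4.5 h. Cyp2b10, a CAR target, was higher by 4.44 ± 0.96, and by 5.78 ± 0.40 without control array 5. The Ahr target Tiparp was higher by 3.53 ± 0.28 and the NRF2 target Hmox1 by 2.47 ± 0.36. Another NRF2 target, Nqo1 (-0.71 ± 0.22), and the Ahr target Cyp1a2 (-0.58 ± 0.14) were lower. Tiparp was also higher in shock (2.80 ± 0.28) and Hmox1 after 1 h of resuscitation (2.43 ± 0.36). Whether these sensors act on the conjugation genes here was not tested. In shock Cyp2b10 differed by 2.28 ± 0.96 and was not called, and without control array 5 it was 3.61 ± 0.40 higher (limma adjusted p = 5.04e-06). In minor trauma Cyp2b10 (5.54 ± 1.04) and Nr1i2 (0.86 ± 0.22) were higher and Gclc, the catalytic subunit for glutathione synthesis, was lower (-1.36 ± 0.33). Without control array 5 the differences of these 3 genes in minor trauma were 6.88 ± 0.44, 0.99 ± 0.21 and -1.72 ± 0.23, and 7 more genes of the list were called there. Tiparp (1.24), Hmox1 (1.48), Ahr (0.85), Nnmt (0.73) and Ces2a (0.38) were higher, and Ugp2 (-0.50) and Cth (-0.48) were lower. Without that array Gclc was also lower at 4.5 h (-0.94, limma adjusted p = 0.00134, against -0.58 and not called with all arrays).

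Summed hepatocyte markers overlapped between control and late arrays, while markers of other liver cells shifted. Of the 8 hepatocyte markers listed 7 were tested, with 1 higher and 1 lower after 4.5 h of resuscitation. Their summed level was 15.81 to 15.87 on the log2 scale in control and 15.78 to 15.87 after 4.5 h. That sum weighs the brightest markers most, and whether such bright probe sets respond linearly was not tested. The overlap therefore does not show that hepatocyte content was unchanged. Of 5 neutrophil markers tested 4 were higher, and their summed level went from 6.74 to 8.62 in control to 11.95 to 12.13. It was 8.99 to 11.17 in shock and 11.36 to 11.99 after 1 h. Of 6 Kupffer cell markers 5 were lower and 1 higher (11.07 to 11.75 in control and 9.75 to 10.25 after 4.5 h). Of 6 sinusoidal endothelial markers 4 were lower and 1 higher (10.57 to 10.97 and 10.26 to 10.41). Of 6 stellate cell markers 2 were lower, of 3 cholangiocyte markers tested 2 were higher, and the 1 erythroid marker tested was not called. The part of these shifts in the lower values of conjugation genes was not tested. The marker lists, too, were set with earlier results of these data known.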

How the data were processed

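The deposited values are intensity signals, 1 per probe set and array. Per the submitters' processing notes they were made by the authors with MAS5, version not given in the sources used here. They were not scaled between arrays. Here 6 was added, log2 was taken and the 20 arrays were quantile normalized. Probe sets above their array's median on at least 3 arrays were kept, control probe sets and those naming no gene or several were set aside, and each gene was read from its kept probe set of highest mean.

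The tests were 1 limma 3.58.1 model of 5 group means in R 4.3.3, with an intensity trend, 7 comparisons and an F test. P-values were adjusted by Benjamini-Hochberg over 12832 genes and called at 0.05. The steps were tested on simulated data. A fold is a bound where every array of the lower group lay at or below the array median (4.60), which then stands in for lower values. Comparisons with control share the control arrays. Replicate numbers did not pair the arrays (36 same-numbered pairs, r from -0.08 to 0.17). The genes, the lists of partner and marker genes and the rules were chosen with earlier results of these data known. Named were the called genes with the largest changes per comparison, up to 10 each way against control and up to 6 otherwise, and the smallest p of a family with none. Per-array values were given for genes changed at least 2-fold. Those of Sult1d1, Sult2a8, Gsta4 and Gstp3 were added after values were seen. Promoter windows are RefSeq sequences of GRCm38.p6, aligned with biopython 1.88. Alternatives covered scaling, the added constant, the filter, the choice of probe set, the trend, array weights, blocks and single arrays. Figures used python 3.11.15, matplotlib 3.10.9, numpy 2.4.6 and pandas 2.3.3.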

Additional observations from a re-analysis of the deposited data

Results flagged for a closer look

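Of 148 sets of 4 or 5 arrays (a gene in a group), 8 held an array far from the others by Dixon's criterion, which chance alone meets in about 1 of 20. Control array 5 read 8.41 for Gstm4, below the 9.01 to 9.15 of the other controls, and 7.97 for Sult1b1, above their 7.08 to 7.32. Control array 3 read 7.39 for Gstm5 (7.55 to 7.58 on the others) and 11.64 for Ugt2b34 (11.41 to 11.46). Control array 4 read 10.78 for Gstt1, below 11.12 to 11.25. Array 3 after 4.5 h of resuscitation read 8.18 for Gstm4, above 7.80 to 7.86, and still below every control. Shock array 4 read 5.79 for Sult1c2, above 5.51 to 5.55. Array 1 after 1 h of resuscitation read 2.78 for Sult1e1, below 3.94 to 4.17, where all 4 arrays lay under the array median.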

How the results depend on the processing

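Of the 259 results of single genes (37 genes in 7 comparisons), 196 stayed on the same side of the threshold under every alternative that tested them (up to 35), and of the 60 called results 0 changed direction. The 196 include results that were never called, so they do not give the share of the 60 calls that held. How many calls held under every alternative is not given here. With single arrays left out, 25 of 29 calls held at 4.5 h, 16 of 24 from 1 h to 4.5 h and 0 of 3 in minor trauma. After 1 h of resuscitation 1 of 1 held, and for shock against minor trauma 2 of 3. With values left as deposited, which moved the median of all genes at 4.5 h to -0.27, the conjugation genes called were 0 after 1 h, 17 at 4.5 h and 10 from 1 h to 4.5 h, and their median at 4.5 h was -0.61. With each array centred on its median the count after 1 h was 0. Under both settings the 3 calls in minor trauma were 3 higher and 0 lower, in place of 1 and 2. Array weights gave 1 call in shock and 2 after 1 h. With the replicate number as a block, 6 genes were called in minor trauma and 2 after 1 h, and the other counts stayed within 1.5 times. Within arrays with spiked dap transcripts the counts were 1 in minor trauma, 13 at 4.5 h, 1 for shock against minor trauma, 10 from 1 h to 4.5 h and 12 for the F test. Within the others they were 0 in minor trauma, 0 after 1 h, 18, 0, 15 and 10 in the same order. Both sets hold fewer arrays, and the minor trauma arm without dap is 1 array, whose spread was taken from the other groups, so the counts of 0 that involve it say nothing about stability. Without control array 5 and minor trauma array 3 together, 6 were called in minor trauma, 2 in shock and 2 after 1 h. Leaving out 1 array gave 0 to 6 calls in minor trauma, 0 to 0 in shock, 1 to 2 after 1 h, 25 to 30 at 4.5 h, 2 to 5 for shock against minor trauma, 0 to 0 for 1 h against shock, 17 to 27 from 1 h to 4.5 h and 21 to 32 for the F test. Where limma gave a count of 0, between 0 and 6 genes had an unadjusted p under 0.05. The cause of these shifts was not tested. Most of these counts stand without the share of all genes called under the same setting. A general loss or gain of calls therefore cannot be told apart from one of the conjugation genes. For the sets with and without dap those shares at 4.5 h were 20.4% and 22.5%. Depth is not defined for arrays, and 3 to 5 arrays per group limit the precision.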
